A study of Mus musculus with 6 samples.

Results

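The 49 genes described here encode RNA polymerase I, its initiation and termination factors, proteins of the nucleolus, and factors that modify, cut and assemble ribosomal RNA. They were taken by name from the 54532 genes of a mouse RNA-sequencing table, and all 49 were found and tested. The cells were GFP+ leukemia cells sorted from bone marrow. Both groups came from fetal liver cells of male mice with a floxed *Phf6* gene on their single X chromosome (*Phf6* fl/y) that were infected with a retrovirus for RUNX1-ETO9a (RE9a), a shortened RUNX1-ETO fusion protein that drives acute myeloid leukemia (AML), together with GFP, and were then transplanted. *WT Phf6,RE9a* cells (WT) had no Cre, so that their floxed gene was intact (replicates 1, 2 and 3). *VC Phf6,RE9a* cells (VC) also carried Vav1-Cre, which acts in blood cells from early in their development (replicates 11, 12 and 13). The labels give no age, no passage and no number of animals per library, and do not state if the 3 libraries in a group stem from separate leukemias. If not, the p-values measure only the spread between these libraries.

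A cell makes ribosomes in the nucleolus. RNA polymerase I is brought to the repeated ribosomal DNA by UBF and the selectivity factor SL1, and copies it into one long precursor. Small nucleolar ribonucleoproteins (snoRNPs) guide the methylation and pseudouridylation of the precursor, and large sets of assembly factors then cut it and fold it into the small and the large subunit. Growing blood and leukemia cells depend on this pathway, and MYC is a well known activator of its genes. PHF6 is a zinc finger protein of the nucleolus and nucleus that has been linked to the control of ribosomal RNA transcription, and its gene is mutated in some human leukemias. The comparison asked whether the RNA for this machinery differed between leukemia cells with and without *Phf6*.

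Total counts per library were 16817994, 15675358 and 16691325 in WT cells and 16315278, 16095424 and 16039999 in VC cells. Levels of a gene between libraries are given as CPM, counts divided by the library total and scaled by TMM, and levels of different genes are compared only in FPKM, which divides by gene length. Where a gene is said to have the most reads of a list, it had the highest mean CPM over the 6 libraries, which takes no account of length and ranks no levels. A count of 3, the most that a count of 0 allows, was at most 0.204 CPM in WT and 0.178 CPM in VC libraries. Such limits cover counting error only. Changes are log2 fold changes of VC over WT with their standard error (SE) from edgeR's quasi-likelihood test, and a gene passed at a Benjamini-Hochberg adjusted p under 0.05 over all 14169 tested genes.

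The deleted gene, *Phf6* (chromosome X, 52912266 to 52956943 on GRCm38), was read 1044, 827 and 1142 times in WT cells and 388, 314 and 331 times in VC cells. The groups did not overlap, and the level fell by 1.66 on the log2 scale, from 64.3 ± 7.15 CPM to 20.3 ± 2.37 CPM (SD, n = 3; SE 0.13, edgeR adjusted p = 9.32e-05). Reads from any part of the gene outside the floxed segment are included in these counts.

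Of the 49 ribosome biogenesis genes, 8 were higher and 5 were lower in VC cells, 26.5% in all, where 44.2% of all tested genes passed (21.5% higher and 22.7% lower). Among the 7704 tested genes whose mean level lay within the range of the 49 genes, 48.5% passed. The changes were small. They ran from -0.93 for *Gnl3* to 0.92 for *Rrp9* on the log2 scale, and the median size of change was 0.13, against 0.44 for all tested genes. None of the 49 changed by 2-fold or more, while 24.0% of all tested genes did. The tested genes include some with fewer reads than any of the 49, and sizes of change were not compared within the range of levels of the 49. The signed median was 0.031, beside 0.013 for all tested genes, with 28 fitted changes above and 21 below 0. In bulk RNA, fewer cells of a type and less RNA per cell cannot be told apart, and this holds for every difference given here.

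**Figure D1:**
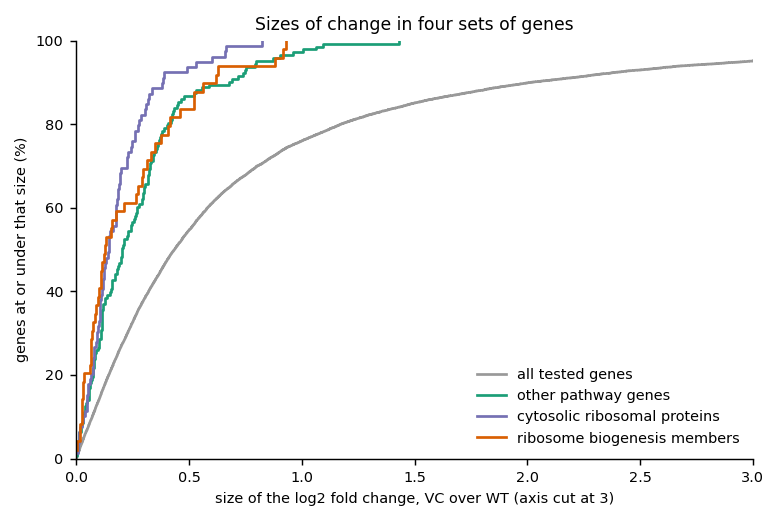
Cumulative share of genes (y axis, percent) at or under a given size of log2 fold change between VC and WT cells (x axis, shown up to 3) for the 49 ribosome biogenesis genes, 143 other genes of the pathway, 79 cytosolic ribosomal proteins and all 14169 tested genes. The curve of the 49 genes ends below 1, while that of all genes continues to the right of the plot.

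For the 36 genes that did not pass, the 95% interval of the fold change shows how large a difference these libraries leave possible. In 31 of them it lay within 1.5-fold in either direction, and in 5 it reached further, with bounds from 0.596 to 1.68. Taken over the 49 genes together, the summed level was 5661, 4847 and 6062 CPM in WT cells and 5536, 5439 and 5560.3 CPM in VC cells. The VC libraries thus lay inside the range of the WT libraries (5524 ± 619 and 5512 ± 64.2 CPM, SD, n = 3), and the log2 difference was 0.0031 (2-sided exact permutation p = 1.00, where 3 against 3 cannot give less than 0.1). Such a sum weighs each gene by its reads, most of all *Ncl* and *Npm1*, and increases and decreases cancel in it. As a share of all counts, the 49 genes took 0.518%, 0.456% and 0.600% in WT and 0.575%, 0.580% and 0.583% in VC libraries.

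The WT libraries were less alike than the VC libraries. The coefficient of variation of the 49 genes had a median of 14.1% in WT and 4.54% in VC cells, and it was larger in WT cells for 45 of them. Tested genes of the same range of levels had medians of 11.2% and 5.82%. WT replicate 2 was the lowest of its group for 40 of the 49 genes, and replicate 3 was the highest for 33. Neither this order nor the count of 45 was taken over all tested genes. Without replicate 2, 6 genes were higher, 8 were lower and the median change was -0.052. Without replicate 3, 9 were higher, 4 were lower and the median was 0.092. Leaving out VC replicate 11, 12 or 13 gave 6, 4 and 5 that were higher and 3, 3 and 4 that were lower.

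**Figure D2:**
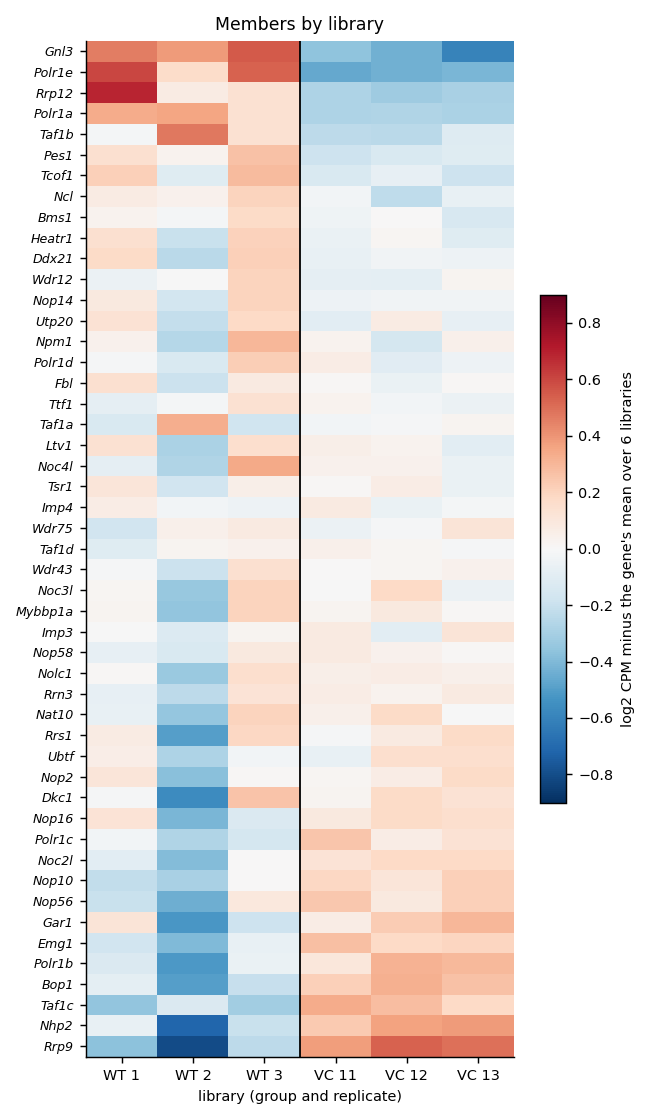
Heat map of the 49 ribosome biogenesis genes (rows, ordered by fitted change) in the 6 libraries (columns), where color gives log2 CPM minus the gene's mean over the libraries. The column of WT replicate 2 is blue for most genes, and the 3 VC columns look alike.

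Of the 5 subunits of RNA polymerase I, 2 were higher and 2 were lower, beside 21.5% and 22.7% of all tested genes. *Polr1a*, the largest and catalytic subunit (chromosome 6), had 148, 150.1 and 129 CPM in WT and 96.8, 96.9 and 96.1 CPM in VC libraries, and fell by 0.56 on the log2 scale (SE 0.085, edgeR adjusted p = 0.00162). *Polr1e*, a subunit that works in initiation and elongation (chromosome 4), had 34.8, 25.7 and 33.1 CPM against 16.6, 17.0 and 17.2 CPM. It fell by 0.88 (SE 0.14, edgeR adjusted p = 0.00200), to 0.542 of the WT level (95% interval 0.433 to 0.680). For both genes every VC library was below every WT library, and both passed under each of 14 alternative fits. The change of *Polr1a* was below 1.5-fold.

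*Polr1b*, the second largest subunit, which forms the catalytic center with *Polr1a* (chromosome 2), rose from 63.9, 49.1 and 67.4 CPM to 75.1, 87.0 and 85.8 CPM (log2 fold change 0.46, SE 0.13, edgeR adjusted p = 0.0246). Without VC replicate 12 or replicate 13 it no longer passed (edgeR adjusted p = 0.0839 and 0.0777). *Polr1c*, which RNA polymerase I shares with RNA polymerase III (chromosome 17), had 51.9, 43.8 and 47.3 CPM against 62.8, 55.4 and 57.7 CPM. Its change of 0.30 (SE 0.10, edgeR adjusted p = 0.0423) was the one nearest to the threshold among the genes that passed, and in 7 of the 14 alternatives it did not pass (adjusted p from 0.0689 to 0.151), among them DESeq2. The other shared subunit, *Polr1d* (chromosome 5), had 65.0, 59.6 and 76.4 CPM against 68.4, 60.9 and 63.5 CPM, and the groups overlapped (-0.062, SE 0.11, edgeR adjusted p = 0.684). The summed level of the 5 subunits was 363, 328 and 354 CPM in WT and 319.7, 317 and 320.2 CPM in VC libraries.

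Among the 7 initiation and termination factors, 1 was higher and none was lower by edgeR or by DESeq2, and 1 was lower at an unadjusted p under 0.05. The 14.3% that passed lay beside 44.2% of all tested genes. *Taf1c*, a subunit of SL1 (chromosome 8), rose from 20.8, 24.3 and 21.4 CPM to 33.4, 32.2 and 30.1 CPM (0.52, SE 0.11, edgeR adjusted p = 0.00722) and passed under all 14 alternative fits. Its change was below 1.5-fold. Of its exonic bases, 16.7% also belong to *Dnaaf1*, which was read 0, 0 and 1 times in WT and 23, 72 and 9 times in VC cells. A further SL1 subunit, *Taf1b*, had 26.7, 37.7 and 29.7 CPM against 23.0, 22.9 and 25.0 CPM. Its libraries did not overlap, but its change of -0.41 (SE 0.15) did not pass (edgeR adjusted p = 0.0535), although it did in 3 of the alternatives (adjusted p from 0.0305 to 0.0497).

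The remaining SL1 subunits had overlapping groups, with 16.2, 22.3 and 15.7 CPM against 17.5, 17.7 and 18.1 CPM for *Taf1a* (-0.025, SE 0.16) and 80.4, 88.5 and 89.2 CPM against 89.6, 88.0 and 86.1 CPM for *Taf1d* (0.031, SE 0.079). *Ubtf*, which encodes the ribosomal DNA binding factor UBF, was the most abundant of these 7 genes in FPKM. It had 203, 160.4 and 191 CPM in WT and 186, 216 and 216 CPM in VC libraries, again overlapping (0.15, SE 0.11, edgeR adjusted p = 0.307, fold interval 0.927 to 1.34). *Rrn3*, which carries RNA polymerase I to the promoter, had 50.8, 45.5 and 58.4 CPM against 56.2, 54.8 and 56.6 CPM (0.12, SE 0.11), and the termination factor *Ttf1* had 33.2, 34.8 and 38.6 CPM against 36.0, 34.6 and 33.9 CPM (-0.027, SE 0.10).

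**Figure D3:**
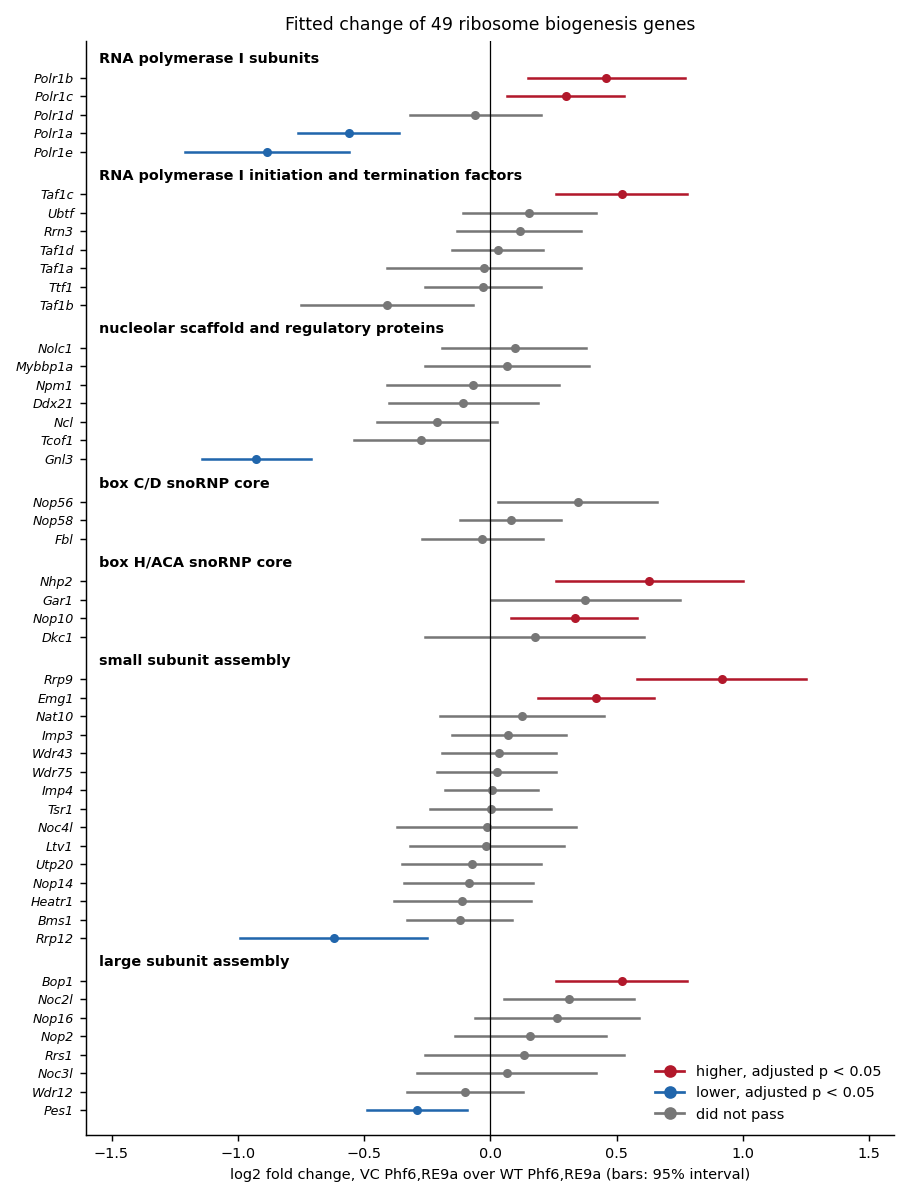
Fitted log2 fold change of VC over WT (x axis; points, with bars for the 95% interval) of the 49 genes, grouped by role (rows). Red genes were higher and blue genes lower at an edgeR adjusted p under 0.05, and within the RNA polymerase I subunits, the small subunit factors and the large subunit factors the genes that passed lie on both sides of 0.

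The 7 nucleolar scaffold and regulatory proteins held the largest decrease of all 49 genes. *Gnl3* encodes nucleostemin, a nucleolar GTPase known from stem cells and tumors (chromosome 14, 31012433 to 31019152 on GRCm38), and had 147, 139.6 and 157 CPM in WT against 83.3, 79.4 and 70.5 CPM in VC libraries. It fell by 0.93 on the log2 scale (SE 0.094, edgeR adjusted p = 0.000256), to 0.526 of the WT level (95% interval 0.452 to 0.611), with no overlap, and passed under all 14 alternative fits. None of the other 6 passed by edgeR or DESeq2, and 1 of them had an unadjusted p under 0.05. *Tcof1*, which encodes treacle, a partner of UBF, had 115, 92.0 and 121 CPM against 90.3, 94.2 and 87.0 CPM (-0.28, edgeR adjusted p = 0.0852), and without WT replicate 2 it passed (-0.40, adjusted p = 0.00603).

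*Npm1*, which encodes nucleophosmin, had the highest mean level of the 49 genes (213 FPKM), followed by nucleolin, *Ncl* (73.0 FPKM), and *Noc2l* (71.5 FPKM). The groups overlapped for *Npm1*, with 583, 476 and 699 CPM against 581, 509.9 and 587 CPM (-0.068, SE 0.15). *Ncl* had 788, 769 and 861 CPM against 736, 639.7 and 714 CPM, a change of -0.21 that did not pass although the groups were apart (edgeR adjusted p = 0.131). The snoRNP chaperone *Nolc1* had 155, 122 and 171 CPM against 159.8, 161 and 159 CPM (0.10, SE 0.12), and *Mybbp1a*, a nucleolar regulator of transcription, had 301, 231 and 339.7 CPM against 301, 314 and 298 CPM (0.066, SE 0.14). The helicase *Ddx21* had a change of -0.11 (edgeR adjusted p = 0.525), and without WT replicate 2 one of -0.25 that passed (adjusted p = 0.0324).

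The snoRNP core proteins belong to 2 classes of particle. Box C/D particles methylate ribosomal RNA, and none of their 3 core genes passed with edgeR or DESeq2, while 1 of them, *Nop56*, had an unadjusted p under 0.05 (0.0350). It had 177, 150.1 and 217 CPM against 240.3, 216 and 236 CPM, so that the highest WT library reached the lowest VC library (0.35, SE 0.14, edgeR adjusted p = 0.0721). In 3 alternatives *Nop56* passed (adjusted p from 0.0103 to 0.0497). *Nop58* had 161, 154 and 180.1 CPM against 179, 174 and 171 CPM (0.083, SE 0.087), and the methyltransferase fibrillarin, *Fbl*, had 151, 119.8 and 145 CPM against 138, 131 and 138 CPM (-0.032, SE 0.10).

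Box H/ACA particles pseudouridylate ribosomal RNA, and 2 of their 4 core genes were higher by edgeR and 1 by DESeq2, while none was lower by either or at an unadjusted p. This was 50.0% of the 4 by edgeR, beside 44.2% of all tested genes. *Nhp2* (chromosome 11) rose from 49.3, 31.6 and 45.1 CPM to 61.0, 66.5 and 67.4 CPM (0.63, SE 0.16, edgeR adjusted p = 0.0152), without overlap, and missed the threshold only without VC replicate 12 (adjusted p = 0.0512). *Nop10* rose from 32.7, 31.2 and 38.3 CPM to 43.4, 41.1 and 44.3 CPM (0.33, SE 0.11, edgeR adjusted p = 0.0381), and did not pass in 7 of the alternatives (adjusted p from 0.0607 to 0.122). *Gar1*, with 45.6, 29.3 and 37.0 CPM against 44.2, 49.3 and 51.7 CPM, did not pass (0.38, SE 0.16, edgeR adjusted p = 0.0951), nor did the pseudouridine synthase *Dkc1* (0.18, SE 0.19).

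Among the 15 small subunit factors, 2 were higher and 1 was lower, 20% beside 44.2% of all tested genes. *Rrp9*, a protein of the U3 snoRNP that starts the processing of the precursor (chromosome 9), had the largest increase of all 49 genes. Its level rose from 48.5, 35.8 and 53.1 CPM to 81.1, 90.4 and 88.2 CPM, a fold change of 1.89 (95% interval 1.5 to 2.39, log2 0.92, SE 0.15, edgeR adjusted p = 0.00196). *Emg1*, a methyltransferase of 18S ribosomal RNA, rose from 80.8, 69.3 and 86.9 CPM to 109.8, 103 and 104 CPM (0.42, SE 0.10, edgeR adjusted p = 0.0117). Both genes were higher in every VC library than in any WT library, and both passed under each of the 14 alternative fits, while *Emg1* changed by less than 1.5-fold. *Emg1* shares 7.2% of its exonic bases with *Lpcat3*, which did not pass (0.033).

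*Rrp12*, which takes part in maturation and nuclear export of pre-ribosomes (chromosome 19), fell by 0.62 (SE 0.16, edgeR adjusted p = 0.0161). It had 112, 73.3 and 76.5 CPM in WT against 57.4, 55.9 and 56.9 CPM in VC libraries, so that WT replicate 1 stood above the rest. Without that library the decrease was 0.41 and still passed (adjusted p = 0.0132), whereas without VC replicate 11 or 12 it did not (0.0517 and 0.0562). The other 12 small subunit factors did not pass, and their changes ran from -0.12 for the GTPase *Bms1*, with 114, 110.2 and 126 CPM against 109, 112 and 101 CPM, to 0.13 for the RNA acetyltransferase *Nat10*. *Imp3*, a partner of the U3 snoRNP, had the highest FPKM of the group (49.5), with 45.9, 42.3 and 46.8 CPM against 48.8, 43.1 and 50.0 CPM (0.071, SE 0.10). Among these 12, *Heatr1* passed without WT replicate 2 (-0.24, adjusted p = 0.0417).

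Among the 8 large subunit factors, 1 was higher and 1 was lower, 25.0% beside 44.2% of all tested genes. Both belong to the PeBoW complex, in which *Pes1*, *Bop1* and *Wdr12* act together. *Bop1* (chromosome 15) rose from 90.0, 67.8 and 82.9 CPM to 111, 119.6 and 115 CPM (0.52, SE 0.11, edgeR adjusted p = 0.00786), with no overlap. It passed under all 14 alternative fits, although its change was below 1.5-fold. *Pes1* fell by 0.29 (SE 0.087, edgeR adjusted p = 0.0276), from 105, 96.9 and 114 CPM to 83.3, 86.2 and 88.3 CPM. This decrease did not pass in 7 of the 14 alternatives (adjusted p from 0.0508 to 0.280), and it was -0.15 when libraries were scaled by their total count. *Wdr12*, with 48.5, 50.2 and 57.6 CPM against 47.4, 47.3 and 51.0 CPM, did not pass (-0.10, SE 0.10).

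*Noc2l*, a factor of early large subunit particles, was the gene nearest to the threshold on its far side (0.31, SE 0.11, edgeR adjusted p = 0.0516). It had 192, 157 and 206 CPM in WT against 224, 232 and 232 CPM in VC libraries, with no overlap, and it passed in 4 of the alternatives (adjusted p from 0.0173 to 0.0432). Of its exonic bases, 20.9% also belong to *Samd11* on the other strand, which rose by 0.88 (edgeR adjusted p = 0.000278), and the strand setting of the counting is not given in the sources used here. *Nop16* did not pass (0.26, SE 0.14) but did in 2 of the alternatives (adjusted p = 0.0423 and 0.0478). *Gar1* likewise passed in 2 (adjusted p = 0.0276 and 0.0252). The changes of *Nop2*, *Noc3l* and *Rrs1* were 0.16, 0.066 and 0.13.

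**Figure D4:**
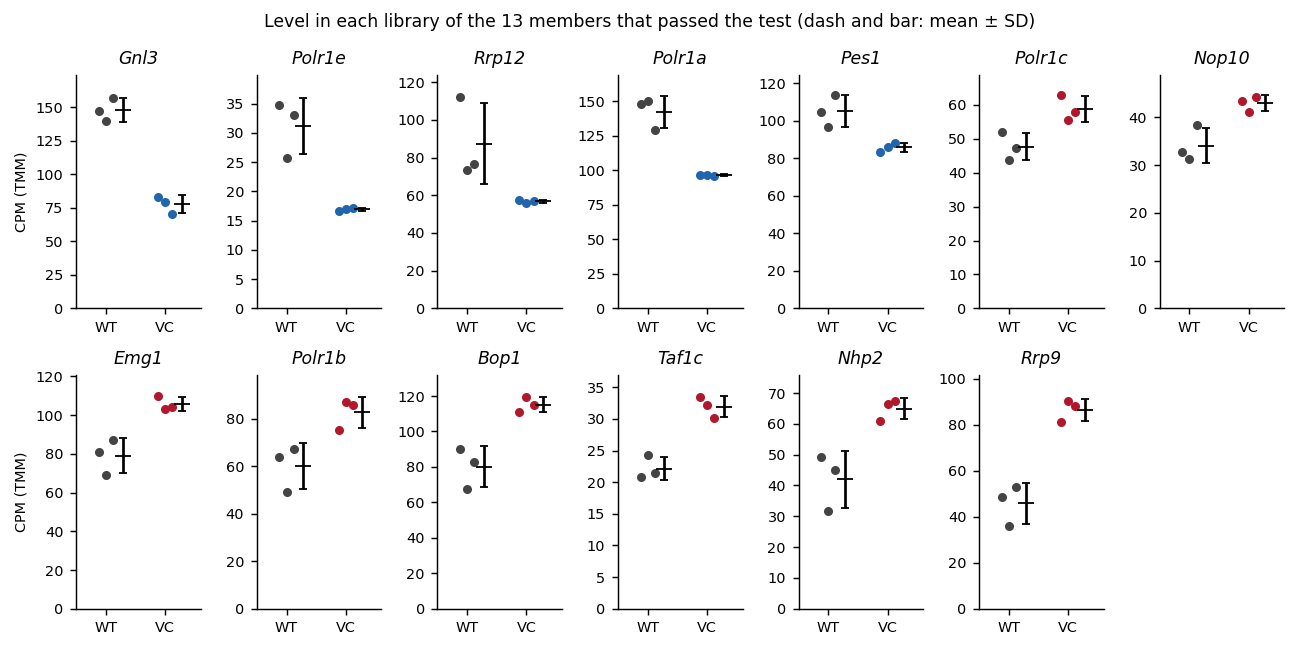
Level (y axis, CPM scaled by TMM, from 0) in each library of the 13 genes that passed, with points for the 3 WT (gray) and 3 VC libraries (blue for genes that were lower, red for genes that were higher) and a dash with bars for the mean ± SD. In each panel the points of the groups do not overlap.

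Counted without a test, the libraries of the groups did not overlap for 9 genes that were higher and 7 that were lower in VC cells, beside 28.9% and 28.4% of all tested genes (57.3% in all). These were the 13 genes that passed together with *Noc2l*, *Taf1b* and *Ncl*. Another feature that the choice of genes did not use is the presence of small nucleolar RNA genes in their introns or exons. In this annotation 8 of the 49 genes hold 29 snoRNA genes on their own strand, with 8 in *Taf1d*, 5 in *Nop56*, 4 in *Nop58*, 3 each in *Ncl*, *Gnl3* and *Wdr43*, 2 in *Tsr1* and 1 in *Dkc1*. Of these 8 host genes, 1 was lower (*Gnl3*) and none was higher by edgeR or DESeq2, beside 22.7% and 21.5% of all tested genes by edgeR. By edgeR, 2 of the 8 had an unadjusted p under 0.05, *Gnl3* (1.16e-05) and *Nop56* (0.0350).

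*Myc*, the activator of the pathway named above, was higher in VC cells. WT libraries held 1012, 1094 and 2261 reads of it and VC libraries 4362, 4372 and 4797. The level rose by 1.53 on the log2 scale, from 92.3 ± 38.8 CPM to 266 ± 16.7 CPM (SD, n = 3; SE 0.26, edgeR adjusted p = 0.00265). *Mycn* was read 0, 0 and 2 times and 0, 0 and 0 times, and was not tested.

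The letters CACGTG, an E-box that MYC with MAX is known to bind and that reads the same on both strands, were searched in RefSeq promoter windows of GRCm38.p6, which cover 300 bases around the start of a gene. A window was found for 43 of the 49 genes, and 9 of these held the letters (20.9%), beside 2187 of 27025 genes with a window (8.09%). Of the 11 genes with a window that passed the test, 1 held them, *Pes1*, which fell, and of the 32 that did not pass, 8 did (25.0%). The matches are shown because *Myc* rose. They are matches of letters in a window and not measured binding sites. Each is printed 5′ to 3′ on the strand of the gene, with the E-box in capitals.
Rrn3: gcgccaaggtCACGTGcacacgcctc
Rrn3: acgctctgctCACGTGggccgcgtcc
Mybbp1a: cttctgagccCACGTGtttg
Imp4: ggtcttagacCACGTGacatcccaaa
Ltv1: cctgtggaccCACGTGtggagctgcc
Tsr1: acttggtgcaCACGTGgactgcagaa
Utp20: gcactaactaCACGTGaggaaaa
Wdr43: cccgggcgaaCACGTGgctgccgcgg
Nop2: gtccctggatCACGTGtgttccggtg
Pes1: ctaggcagggCACGTGcgggaggaag

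The initiation factor *Rrn3* held the letters in 2 places, in the stretches chr16:13780474-13780499 and chr16:13780641-13780666 on the plus strand. That of *Pes1*, the only gene among those printed that passed, was chr11:3963967-3963992 on the plus strand. *Nop2*, a methyltransferase of 28S ribosomal RNA, held them in chr6:125131813-125131838 on the plus strand. *Utp20*, a scaffold of small subunit processing, held them in chr10:88826765-88826787 on the minus strand. The log2 fold changes of the 8 genes with an E-box that did not pass ran from -0.074 for *Utp20* to 0.16 for *Nop2*. *Tsr1*, a factor of late small subunit particles, lay between them at 0.0042 (SE 0.10), with 48.1, 39.6 and 46.4 CPM against 44.9, 46.8 and 42.8 CPM. It shares 32.3% of its exonic bases with *Srr* on the other strand, which fell by 0.49 (edgeR adjusted p = 0.0365).

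Outside the 49 genes, 146 other genes of ribosome biogenesis were found in the table and 143 were tested. Of these, 32 were higher and 7 were lower in VC cells, 27.3% in all beside 44.2% of all tested genes, with a median change of 0.10. With total count scaling, which moved the median of all tested genes from 0.013 to 0.16, 50 were higher and 3 were lower, and of the 49 genes 12 were higher and 4 were lower. For the 143 genes the counts were 24 and 15 without WT replicate 2, and 17 and 4, 19 and 4, and 18 and 5 without VC replicates 11, 12 and 13. *Pop1*, the largest protein of RNase MRP and RNase P, which cut ribosomal and transfer RNA precursors, had the largest increase. Its level rose from 26.0, 23.5 and 28.2 CPM to 70.3, 67.9 and 71.3 CPM (1.43, SE 0.10, edgeR adjusted p = 5.87e-05).

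In that list of 9 tested RNase MRP and RNase P genes, 2 were higher and none was lower, the second being *Pop5* (0.68). Of 8 further RNA polymerase I and shared subunits, 3 were higher and none was lower. *Polr2k* (1.09) and *Polr2f* (1.06), small subunits common to the nuclear RNA polymerases, rose most, the latter from 26.2, 17.2 and 23.7 CPM to 46.2, 52.0 and 42.0 CPM. Among 13 genes of the RNA exosome, which trims RNA from the 3′ end, 3 were higher and none was lower. *Exosc4* rose by 1.01 and *Exosc1* by 0.59, the latter passing in 9 of 14 alternatives, and *Exosc6* had a count of 0 in all libraries. The shares that passed were 22.2%, 37.5% and 23.1% in the order given, where 21.5% of all tested genes were higher and 22.7% lower. In these 3 lists none was lower by DESeq2 or at an unadjusted p under 0.05 either.

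Of 10 snoRNP assembly genes, 3 were higher and 1 was lower. *Snu13*, which binds the kink-turn of box C/D RNA, rose by 0.75 (edgeR adjusted p = 0.00137) and *Znhit3* by 0.72, while *Nufip1* fell by 0.96 (edgeR adjusted p = 0.000981). The increase of *Znhit3* passed in 13 of 14 alternatives. Among 48 further small subunit factors, 9 were higher and 3 were lower, with *Utp23* (0.90) and the 18S dimethylase *Dimt1* (0.80) at one end and *Ngdn* (-0.79) and *Nop9* (-0.75) at the other. Among 55 further large subunit factors, 12 were higher and 3 were lower. *Brix1* (0.69) and *Nol12* (0.48) rose most and *Sdad1* (-0.41) and *Rrp1* (-0.35) fell most. With total count scaling the last 2 did not pass (edgeR adjusted p = 0.0878 and 0.116). *Sdad1* passed in 13 of 14 alternatives and *Rrp1* in 10. The shares that passed were 40%, 25% and 27.3% of these 3 lists, beside 44.2% of all tested genes.

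**Figure D5:**
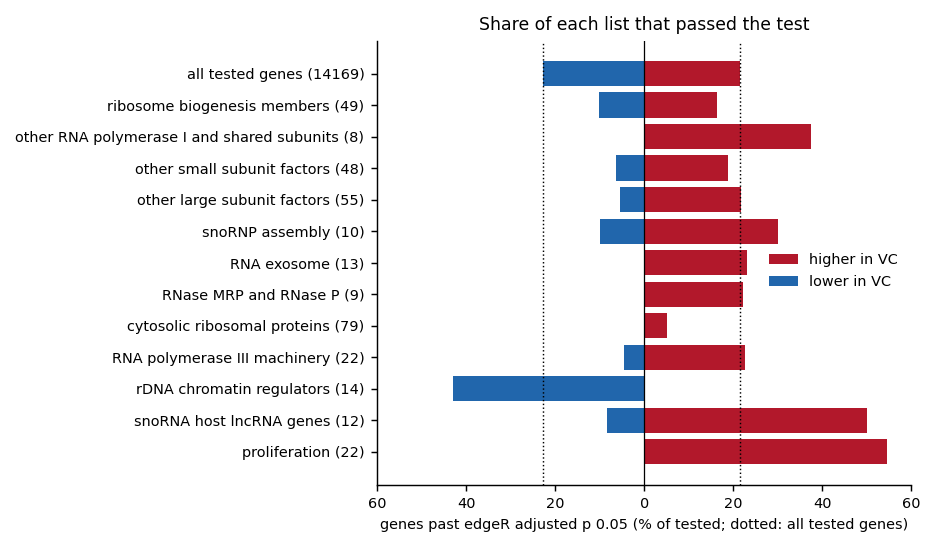
Percent of the tested genes of each list (rows, with the number tested) that passed at an edgeR adjusted p under 0.05, to the right for genes higher and to the left for genes lower in VC cells. Dotted lines mark all tested genes (21.5% higher, 22.7% lower). Of the cytosolic ribosomal proteins, 5.06% were higher and none was lower.

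Genes of related machinery were counted in the same libraries. Of 79 cytosolic ribosomal protein genes, 4 were higher and none was lower (5.06% beside 44.2% of all tested genes, median 0.062), while 2 were lower at an unadjusted p under 0.05 and 1 by DESeq2. *Rpl8* had the smallest p and rose by 0.66 (edgeR adjusted p = 0.00494), with 1276, 997 and 991 CPM against 1716, 1657 and 1798 CPM, while *Rplp0*, with the most reads, did not pass (-0.046, SE 0.11). Reads that these genes, and genes among the 49 such as *Npm1*, *Fbl* and *Nop10*, share with annotated processed copies could have been split in the counting. Of 22 genes of RNA polymerase III, which makes 5S ribosomal and transfer RNA, 5 were higher and 1 was lower, 27.3% in all beside 44.2% of all tested genes. *Maf1*, a repressor of that polymerase, rose by 0.79 (edgeR adjusted p = 0.000209), from 98.5, 91.3 and 92.4 CPM to 162, 166 and 159 CPM.

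Of 14 genes listed as regulators of ribosomal DNA chromatin, 6 were lower and none was higher. The same counts held by DESeq2 and at an unadjusted edgeR p under 0.05. The 42.9% that passed lay beside 44.2% of all tested genes (22.7% lower and 21.5% higher). *Ercc6*, a chromatin remodeler of DNA repair that also acts at ribosomal DNA, had the smallest p and fell by 0.93 (SE 0.10, edgeR adjusted p = 0.000370), from 82.7, 80.3 and 78.3 CPM to 44.0, 45.8 and 37.0 CPM. *Nrip1* (-1.10), *Kdm4b* (-0.89), *Phf8* (-0.56), *Sirt1* (-0.50) and *Phf2* (-0.37) were the other 5, named after their values were seen. That *Nrip1* acts at ribosomal DNA was not checked, and the counts of this list include it. The DNA methyltransferase *Dnmt1*, with the most reads of the list, did not pass (0.094, SE 0.15). Of 12 non-coding host genes of snoRNAs, 6 were higher and 1 was lower, with increases of 0.29 for *Gas5*, the one with the most reads, and 1.42 for *Snhg4*. *Gas5* passed in 10 of 14 alternatives. In this list 58.3% passed and in that of proliferation genes 54.5%. Of 22 proliferation genes, 12 were higher and none was lower (median 0.47) by edgeR, and 14 were higher by DESeq2. Among them, *Mki67* rose by 0.57 and passed in 13 of 14 alternatives. The mitotic kinase *Aurka* rose by 1.03 and passed in all 14.

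Markers of several blood cell types differed between the groups beside these results. For comparison, 21.5% of all tested genes were higher and 22.7% were lower. Of 12 mast cell and basophil markers, 11 were lower and none was higher, and their summed level was 27940.4, 30767 and 19469 CPM in WT and 4978, 5067 and 5429 CPM in VC libraries. *Hdc* had the most reads over both groups (5973 ± 1853 and 2563 ± 104 CPM, SD, n = 3), although in WT cells *Cpa3* had more (6749 ± 1507 CPM). By mean FPKM, *Cpa3* (2300.2) was above *Hdc* (663). *Fcer1a* had the smallest p (603 ± 166 and 5.30 ± 0.169 CPM), and *Ms4a2* did not pass (-0.13). Of 18 markers of granulocyte and monocyte maturation, 16 were higher and 1 was lower. Their sum was 385, 360.0 and 759 CPM against 4372, 2881 and 1271 CPM, with *S100a9* of the most reads and *Camp* of the smallest p (log2 fold change 3.39). All 9 erythroid markers tested were higher, with sums of 2274, 1498 and 2122 CPM against 5514, 6249.8 and 5269 CPM, *Hbb-bs* of the most reads and *Epor* of the smallest p (1.38).

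Lymphoid and macrophage markers were low. The 8 B cell markers summed to 3.12, 2.78 and 8.41 CPM against 73.0, 74.3 and 26.2 CPM, all 5 that could be tested were higher, and *Ighm* had the most reads. The 8 T cell markers summed to 1.23, 1.83 and 2.06 CPM against 10.6, 9.26 and 7.49 CPM, of which *Lck*, the only one tested, had the most reads and was higher, while *Cd3e* stayed at or under 0.354 CPM. Of 9 macrophage and dendritic cell markers tested, 2 were higher and none was lower, with sums of 17.3, 24.9 and 16.4 CPM against 42.2, 35.9 and 36.5 CPM and *Vcam1* of the most reads. The 22.2% of these 9 that were higher lay beside 21.5% of all tested genes. The part of these markers in the results on the 49 genes was not tested.

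As a check of the cells, the leukocyte gene *Ptprc* was read in all 6 libraries (12.2 to 56.7 CPM) and did not pass (0.86, edgeR adjusted p = 0.167). *Runx1* had the most reads of the 6 genes checked and did not pass (-0.27, edgeR adjusted p = 0.0547), though it did in 4 of the alternatives. *Runx1t1*, the source of the ETO part of the fusion, rose by 0.86, and *Cebpa*, a myeloid factor, by 1.94, while *Spi1* did not pass (0.20). The progenitor marker *Cd34* had 205, 773 and 169.9 CPM against 7.62, 31.6 and 7.13 CPM, a decrease of 4.63 on the log2 scale (SE 0.83, edgeR adjusted p = 0.00347). Of the granule genes of myeloblasts, *Mpo* had 23.9, 16.8 and 68.2 CPM in WT and 175, 137 and 90.0 CPM in VC libraries. Of the mast cell protease genes, *Cpa3* had 6886, 8183 and 5179 CPM in WT and 158, 390.4 and 274 CPM in VC libraries.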

How the data were processed

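RNA of sorted GFP+ cells was made into libraries with a TruSeq RNA kit and sequenced in pairs on a NovaSeq 6000. For each of the 3 libraries in a group the authors deposited raw, whole-number counts per gene. They also deposited FPKM values, which are proportional to the counts divided by the deposited gene length. The submitters' processing notes name Bowtie 0.12.0 and mm8, while 98.33% of the 54409 genes found in GENCODE M21 (GRCm38) share both ends with it, and the deposited coordinates are therefore printed as GRCm38. The counting tool, annotation release and strand setting are not given in the sources used here. The authors' own DESeq2 columns (group means, log2 fold changes, p-values) were not used.

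Counts were filtered (filterByExpr), scaled by TMM and compared with edgeR 4.0.16 in R 4.3.3, with the quasi-likelihood test, no covariate and Benjamini-Hochberg adjustment over 14169 of 54532 genes at 0.05. No 2 libraries were duplicates: the chi-square per gene between replicates was 11.7 to 45.2. The fit was tested on simulated data before use.

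The 49 genes, the other lists and the tests were chosen with earlier results of these data known. The 49 genes were sorted into 7 roles by hand. Named were *Phf6*, *Myc*, *Mycn*, every polymerase subunit, initiation and termination factor, the 2 largest increases, 2 largest decreases and highest FPKM of each other role, genes on either side of the threshold, genes whose call changed under an alternative, and in other lists the 2 largest passed changes in each direction at or above a mean log2 CPM of 1 (pathway lists) or the highest mean CPM over the 6 libraries and smallest p. A gene that this rule names among the B cell markers is not reported here. Alternatives were DESeq2 1.42.0, size factors (RLE), upper quartile and total count scaling, a minimum of 10 counts in every library, no filter, limma 3.58.1 on log2(FPKM + 1) and log2(FPKM + 0.1), each library left out, and stricter thresholds. Of the listed genes, 3 were not in the table and were not analysed here. Sequences came from RefSeq (GRCm38.p6). Figures were drawn with matplotlib 3.10.9.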

Additional observations from a re-analysis of the deposited data

How the results depend on the processing

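No result that passed changed direction. Of the 13 genes that passed, 7 (*Bop1*, *Emg1*, *Gnl3*, *Polr1a*, *Polr1e*, *Rrp9* and *Taf1c*) did so under all 14 alternative fits, and 6 were lost under at least 1. Of the 36 others, 28 never passed and 8 passed under at least 1, and 24 of the 36 had a fitted change that crossed 0 in some fit. The median change of the 49 genes ran from -0.052 to 0.18. At an adjusted p under 0.01, 3 of the 49 genes were higher and 3 lower, 13 and 4 of the other pathway genes, and 1690 and 2110 of all tested genes. With a change of at least 1.5-fold asked for as well, 2 and 3 of the 49 genes, 13 and 3 of the other pathway genes, and 2137 and 2373 of all tested genes passed. Total count scaling gave 50 and 3 other pathway genes and 4048 and 2474 of all genes, where TMM gave 3047 and 3213. Leaving out 1 library at a time gave 4 to 9 higher and 3 to 8 lower among the 49 genes, 17 to 40 and 4 to 15 among the other pathway genes, and 2179 to 3132 and 2511 to 3338 among all genes, and the log2 fold change of *Phf6* lay between -1.76 and -1.59. The log2 difference in the summed level of the 49 genes ran from -0.088 to 0.073 without 1 library and was 0.15 with total count scaling. With 3 libraries a group, the interval of 5 of the 36 genes that did not pass still reached past 1.5-fold. No paired analysis was possible because the libraries of the groups share no replicate number.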

Other observations

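The table also holds a few genes read from ribosomal RNA itself, which were chosen after their values were seen. *CT010467.1*, annotated as an 18S ribosomal RNA related sequence on chromosome 17 of GRCm38 from 39846353 to 39848827, was read 8841, 6282 and 10721 times in WT and 4800, 3797 and 3781 times in VC cells. The groups did not overlap, and it fell by 1.18 on the log2 scale (SE 0.17, edgeR adjusted p = 0.00141). Reads of the repeated ribosomal DNA can match many copies, and how the counting treated them is not given in the sources used here. All genes annotated as nuclear ribosomal RNA had 8917, 6405 and 10816 reads in WT and 4903, 3907 and 3918 in VC libraries. This is a small part of the total counts. How completely library preparation removed ribosomal RNA from each sample was not tested, so these reads do not measure the ribosomal RNA of the cells. The neighboring non-coding gene *Gm26917* was read 3172, 3164 and 16520 times against 2106, 2379 and 2477 times, a decrease of 1.79 (SE 0.59, edgeR adjusted p = 0.0396) in which WT replicate 3 was far above the other libraries. The mitochondrial ribosomal RNAs *mt-Rnr2* (-0.11, SE 0.21, edgeR adjusted p = 0.718) and *mt-Rnr1* (-0.090, SE 0.13, edgeR adjusted p = 0.617) did not pass.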
